A study of Mus musculus with 16 samples.

Results

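The genes examined were 10 genes of the epithelial to mesenchymal transition (EMT), chosen by symbol in both deposited count tables: Cdh1, Cdh2, Vim, Snai1, Snai2, Twist1, Zeb1, Zeb2, Grhl2 and Ovol1. All 10 were present among the 55414 genes kept from the table of the untreated experiment and the 56980 genes of the table of the IFNγ experiment. RNA-seq was performed on cultured KPC1199 cells, a mouse pancreatic ductal adenocarcinoma line from the KPC model, in which Pdx1-driven Cre switches on a mutant Trp53 allele, so every group carried it. The cells also carried a lentiviral CRISPR-Cas9 construct with either a control guide (sgCtrL) or 1 guide against Sin3B (Sin3Bsg1) and had been selected with puromycin. The untreated experiment held 2 libraries of sgCtrL and 2 of Sin3Bsg1 cells, and the IFNγ experiment held 3 libraries of each genotype without IFNγ and 3 of each with IFNγ at 10 ng per ml for 24 h. The comparisons addressed how the epithelial against mesenchymal balance of these tumor cells differed with loss of Sin3B, a scaffold of histone deacetylase complexes, and with IFNγ. The labels do not say whether libraries of a group came from separate cultures, so p-values cover only the spread between these libraries.

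In EMT, epithelial cells give up cell-cell adhesion through E-cadherin, encoded by Cdh1, and come to express N-cadherin, encoded by Cdh2, together with the intermediate filament protein vimentin, encoded by Vim. The zinc finger proteins Snai1 (Snail) and Snai2 (Slug), the basic helix-loop-helix protein Twist1 and the zinc finger homeobox proteins Zeb1 and Zeb2 are known to drive this program, and Snail and Zeb proteins repress Cdh1 through E-box motifs in its promoter. Grhl2 and Ovol1 are transcription factors that maintain the epithelial state, Grhl2 in part by opposing Zeb1. Pancreatic cancer cells often hold epithelial and mesenchymal genes at the same time.

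The guide was found in the GRCm39 genome at a single site with an NGG motif, chr8:73449982-73450004 on the plus strand, within the coding sequence of Sin3b (exon 1). It is printed because all Sin3Bsg1 libraries rest on it, with the motif that Cas9 requires beside the target in capitals.
Sin3Bsg1 target: tggctcccgctggggtcgttCGG
Sin3b, the targeted gene, was lower in every Sin3Bsg1 library. Untreated, it stood at 88.6 and 83.4 CPM (counts relative to the library's total, after edgeR's TMM scaling) in sgCtrL and at 36.5 and 34.1 CPM in Sin3Bsg1. In the IFNγ experiment sgCtrL libraries ran from 80.4 to 95.6 CPM and Sin3Bsg1 libraries from 33.6 to 39.4 CPM. Sin3b transcript was thus 2.33- to 2.43-fold lower in the 3 genotype comparisons, and it was still detected.

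Libraries held 29499733 to 32093704 estimated counts in the untreated experiment and 18128055 to 27056903 in the IFNγ experiment. Replicate 1 of sgCtrL with IFNγ stood apart from its group: the mean chi-square per gene was 23.2 and 19.5 against the other 2 libraries, which differed from each other by 4.12, and results that rest on it are given with and without it. It is the library that stood apart in what follows. Replicate 1 of Sin3Bsg1 with IFNγ differed to a smaller degree, by 6.91 and 9.63 from libraries of its group that differed from each other by 3.52. Of 8 markers of pancreatic ductal tumor cells, 7 were at 1 CPM or more in every group, and Cldn4 was at 0 to 4 counts. Markers of acinar and endocrine cells summed to 3.3 to 11.49 CPM in a library. Among them, Cela1 and Prss2 were lower in untreated Sin3Bsg1 (log2 fold changes of -0.67 and -1.19, edgeR adjusted p = 0.00101 and 0.0216). In the IFNγ experiment only Prss2 without IFNγ was called (-1.34, adjusted p = 0.0467). Markers of immune cells summed to 4.37 to 7.06 CPM in a library and those of endothelial cells to 0.0859 to 0.918 CPM, with Cd3e, Adgre1, Cdh5 and Tie1 at 0 in every library. Of 8 fibroblast markers, Dcn, Lum, Fap, Pdpn and Thy1 averaged under 1 CPM in every group. The fibroblast sum, which was nearly all Pdgfra and Pdgfrb, was lower in Sin3Bsg1. It was 101.4 to 101.5 CPM in sgCtrL and 31.5 to 35.2 CPM in Sin3Bsg1 of the untreated experiment, 264 to 270.2 against 225 to 237 CPM without IFNγ, and 185 to 187 against 161 to 173 CPM with IFNγ. Both genes were lower in Sin3Bsg1 in the untreated experiment (log2 fold changes of -1.78 and -1.14), but in the IFNγ experiment Pdgfra was lower (-0.26 and -0.21) and Pdgfrb higher (0.19 and 0.27, adjusted p = 0.0338 and 0.00594). In bulk RNA, fewer cells of a kind and less RNA per cell cannot be told apart.

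Both epithelial and mesenchymal genes were transcribed in KPC1199 cells. Set side by side per transcript length, as TPM (each gene's counts divided by its length and scaled to 1 library total), Vim was the most abundant of the 10 genes in each group, with group means from 1324 to 1963 TPM. Cdh1 was second in each group, at 62.9 ± 0.488 TPM (SD, n = 2) in untreated sgCtrL and 133 ± 1.89 TPM (n = 2) in untreated Sin3Bsg1. Below it stood Cdh2, Zeb2 and Zeb1, with group means between 15.3 and 36.1 TPM. The order of Cdh2 and Zeb2 changed between groups, and their libraries overlapped in the Sin3Bsg1 groups of the IFNγ experiment and in sgCtrL with IFNγ. Snai1, Snai2 and Twist1 came next, from 3.94 to 20.7 TPM. Grhl2 was low, from 0.49 to 1.74 TPM, and Ovol1 was at or under 0.0686 TPM in each group.

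Cdh1 (ENSMUSG00000000303, GRCm39 chr8:107329941-107396880) was about doubled in Sin3Bsg1 cells in all 3 genotype comparisons. Its level was 135 and 137 CPM in untreated sgCtrL and 286 and 289.9 CPM in untreated Sin3Bsg1. In the IFNγ experiment without IFNγ the sgCtrL libraries held 91.8, 88.6 and 88.4 CPM and the Sin3Bsg1 libraries held 169, 172 and 167 CPM. With IFNγ the values were 85.3, 73.1 and 70.7 CPM against 165, 142 and 150.1 CPM. No sgCtrL library reached the level of any Sin3Bsg1 library of its comparison. The log2 fold changes were 1.08 (SE 0.027, adjusted p = 6.26e-14), 0.92 (SE 0.067, adjusted p = 1.25e-07) and 0.9998 (SE 0.067, adjusted p = 5.61e-08), in that order. Under every alternative setting tried, the call remained, with log2 fold changes of at least 0.91.

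Cdh2 (ENSMUSG00000024304, GRCm39 chr18:16700793-16942381), which encodes N-cadherin, fell by a small amount in the untreated experiment. It stood at 52.5 and 53.4 CPM in sgCtrL and at 46.8 and 46.2 CPM in Sin3Bsg1, with no overlap, and the log2 fold change was -0.19 (SE 0.047, adjusted p = 0.00553). In the IFNγ experiment the genotypes overlapped, at 66.2 to 71.8 against 62.3 to 67.1 CPM without IFNγ and 69.1 to 82.5 against 65.3 to 75.8 CPM with IFNγ. The log2 fold changes of -0.07 in both conditions did not pass the test (adjusted p = 0.565 and 0.564), with 95% intervals of -0.22 to 0.08. With IFNγ and without replicate 1 of sgCtrL, the highest of its group at 82.5 CPM, the estimate was 0.026.

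**Figure D1:**
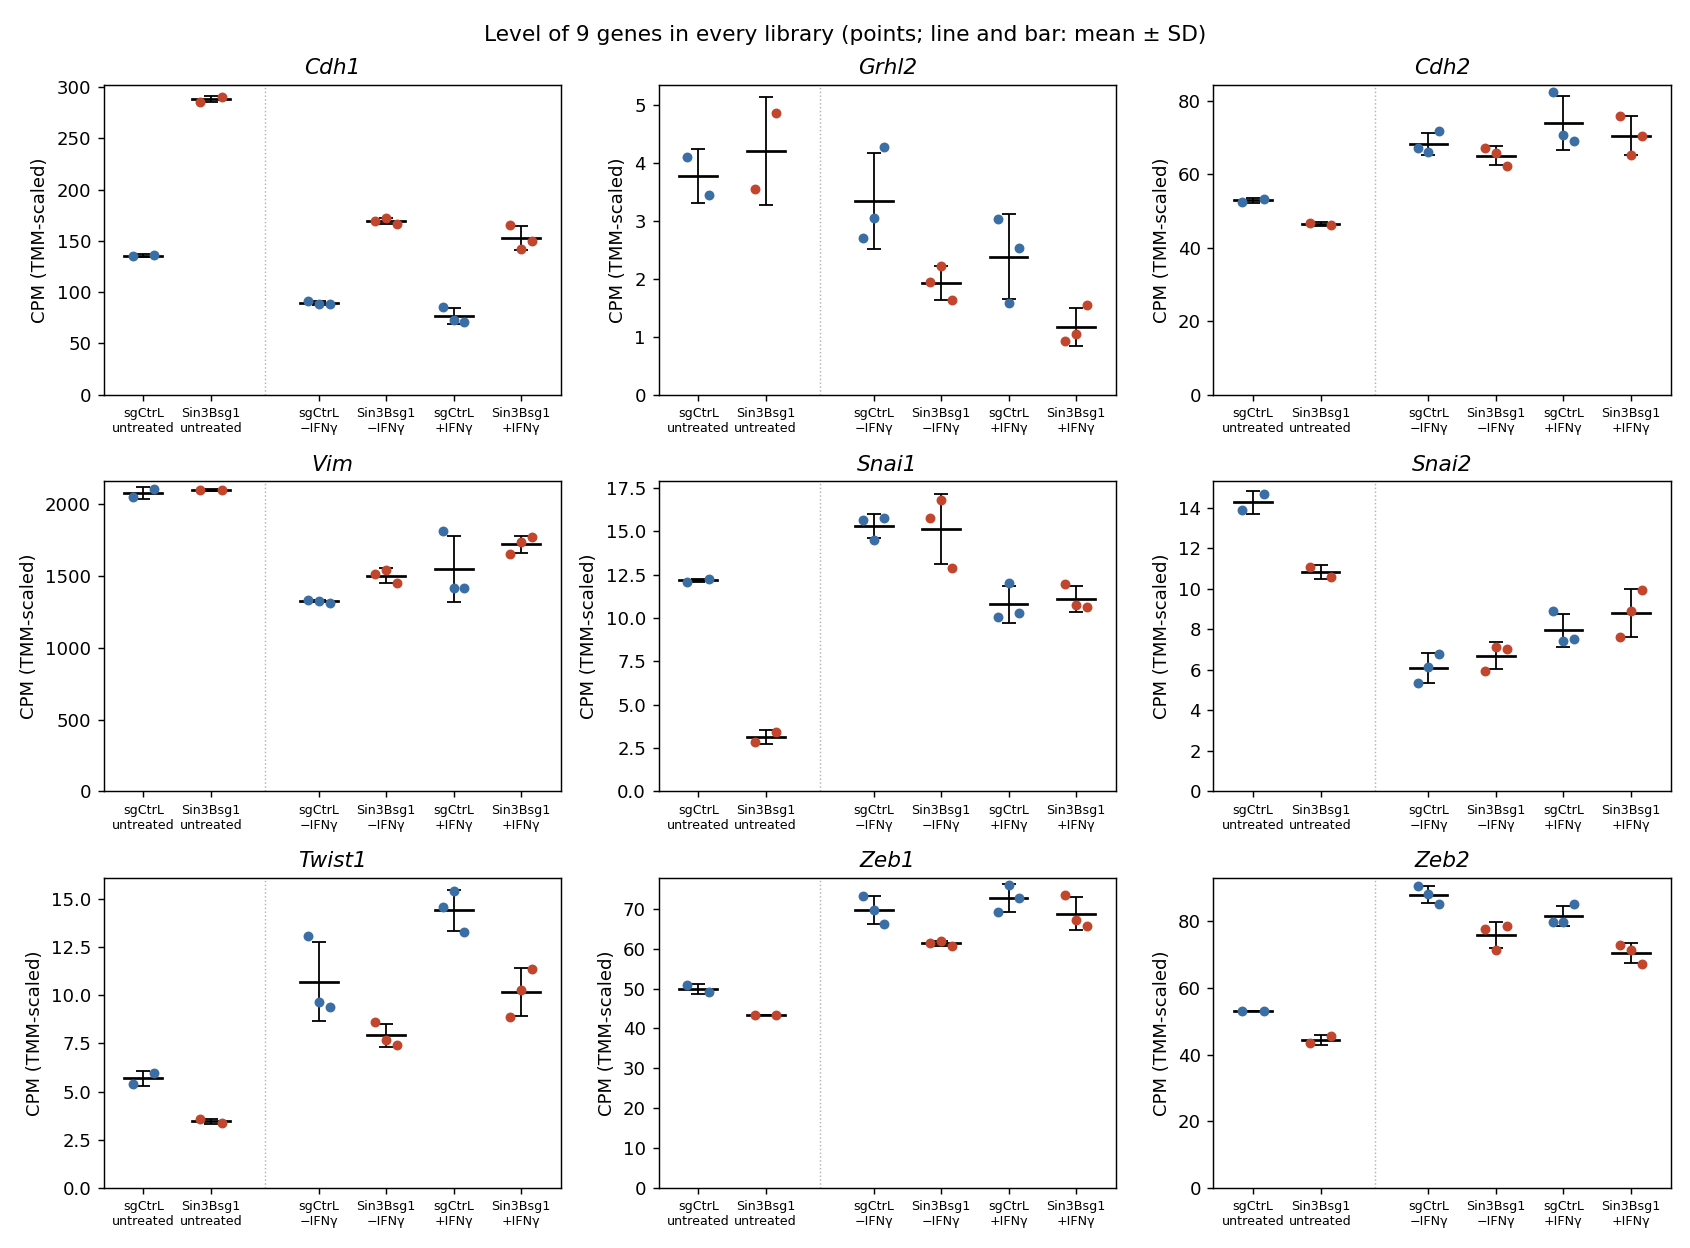
CPM of 9 genes (panels; linear axes from 0) in every library, with sgCtrL in blue and Sin3Bsg1 in red; horizontal lines are group means and bars are SD, and the dotted line parts the untreated experiment from the IFNγ experiment. Cdh1 is higher in each Sin3Bsg1 group, while Snai1 is 12.1 and 12.2 CPM against 2.83 and 3.40 CPM in the untreated experiment and overlaps between genotypes in the IFNγ experiment.

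The ratio of Cdh1 to Cdh2, both in TPM, separated the genotypes in every comparison. Untreated, there were 2.81 and 2.80 Cdh1 transcripts for each Cdh2 transcript in sgCtrL and 6.67 and 6.86 in Sin3Bsg1. Without IFNγ the ratio was 1.49, 1.46 and 1.35 in sgCtrL and 2.76, 2.86 and 2.92 in Sin3Bsg1. With IFNγ it was 1.13, 1.13 and 1.12 in sgCtrL and 2.39, 2.38 and 2.33 in Sin3Bsg1. On the log2 scale the ratio was thus higher in Sin3Bsg1 by 1.27, 0.99 and 1.07, while the larger SD of the 2 groups compared was 0.029, 0.08 and 0.019. The library of sgCtrL with IFNγ that stood apart was the highest of its group for both cadherins and had a ratio like the others, 1.13. Most of the shift lay in Cdh1, whose log2 fold change exceeded that of Cdh2 in size in each comparison.

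**Figure D2:**
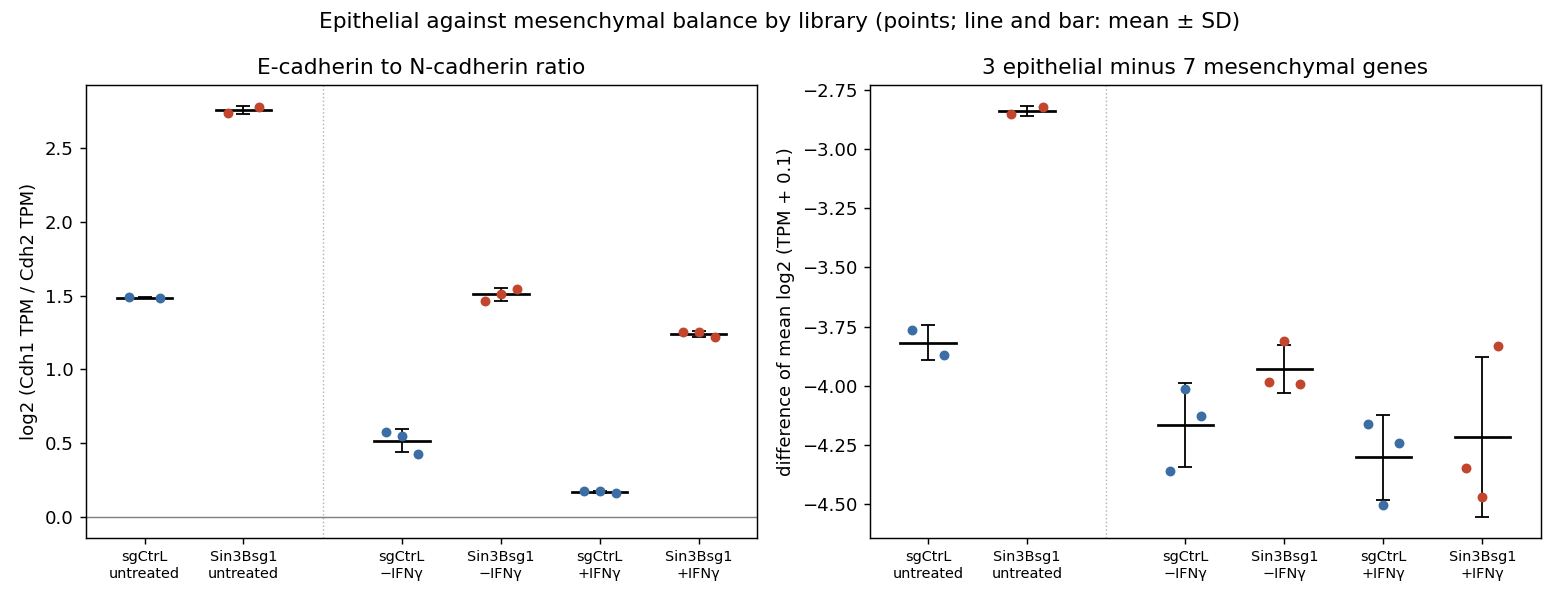
Left, log2 ratio of Cdh1 to Cdh2 (TPM) by library; right, mean log2(TPM + 0.1) of Cdh1, Grhl2 and Ovol1 minus that of the 7 mesenchymal genes, with group means (lines) and SD (bars) for sgCtrL (blue) and Sin3Bsg1 (red). The left panel separates the genotypes in all 3 pairs of groups, and in the right panel the groups with IFNγ overlap.

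Neither epithelial regulator was called higher along with Cdh1. Grhl2 (ENSMUSG00000022286, GRCm39 chr15:37233280-37363813) was carried by only 22 to 150 counts in a library. In the untreated experiment it stood at 4.10 and 3.44 CPM in sgCtrL and at 3.55 and 4.86 CPM in Sin3Bsg1, with overlap and a log2 fold change of 0.16 (SE 0.20, adjusted p = 0.61). In the IFNγ experiment it was lower in Sin3Bsg1, at 1.94, 2.22 and 1.63 CPM against 2.70, 3.05 and 4.28 CPM without IFNγ and at 0.919, 1.05 and 1.55 CPM against 3.03, 1.59 and 2.52 CPM with IFNγ. The groups did not overlap in either condition. The log2 fold change was -0.79 without IFNγ (SE 0.27, adjusted p = 0.0617) and -1.01 with IFNγ (SE 0.29, adjusted p = 0.0278). The second call was lost when replicate 1 or 3 of sgCtrL or replicate 1 or 2 of Sin3Bsg1 with IFNγ was left out (adjusted p = 0.0833, 0.071, 0.103 and 0.097), and with the 6 libraries compared fitted alone (adjusted p = 0.0761). The first estimate passed the test with replicate 1 or 2 of sgCtrL with IFNγ left out (adjusted p = 0.0338 and 0.0411).

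Ovol1 (ENSMUSG00000024922, GRCm39 chr19:5599164-5610674) had 0 to 1 counts per library in the untreated experiment and 0 to 6 in the IFNγ experiment, was removed by the filter on low counts and was not tested. At most 1 of the 16 libraries, replicate 3 of Sin3Bsg1 with IFNγ, exceeded the floor of 3 counts, so no difference was detectable at this depth. Its relative Ovol2 was likewise at 0 to 4 counts and Grhl1 at 0 to 8 counts. Grhl3, at 0.396 to 1.07 CPM as group means, did not pass the test in any genotype comparison.

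Snai1 (ENSMUSG00000042821, GRCm39 chr2:167380113-167384734) showed the largest log2 fold change of the 10 genes, in the untreated experiment. There it stood at 12.1 and 12.2 CPM (360 counts in each library) in sgCtrL and at 2.83 and 3.40 CPM (91 and 105 counts) in Sin3Bsg1. The log2 fold change was -1.97 (SE 0.14, adjusted p = 1.51e-08), a 3.91-fold lower level. Without IFNγ in the other experiment the genotypes overlapped, at 15.7, 14.5 and 15.8 CPM in sgCtrL and 15.8, 16.8 and 12.9 CPM in Sin3Bsg1. With IFNγ they overlapped again, at 10.04, 12.01 and 10.3 CPM against 11.99, 10.8 and 10.6 CPM. The log2 fold changes were -0.014 (95% interval -0.23 to 0.20) and 0.039 (95% interval -0.19 to 0.27), neither past the test (adjusted p = 0.949 and 0.865). These intervals leave out a fall of the size in the untreated experiment, but the experiments were deposited as separate tables and the difference between them was not tested.

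The 250 bases before the start of Snai1 are shown because Snail proteins bind E-boxes and Snai1 differed most. The window (GRCm38.p6, chr2:167537945-167538194, plus strand, from RefSeq) holds 1 E-box of the form CACCTG or its complement CAGGTG, in capitals, 126 to 121 bases before the start.
Snai1 promoter: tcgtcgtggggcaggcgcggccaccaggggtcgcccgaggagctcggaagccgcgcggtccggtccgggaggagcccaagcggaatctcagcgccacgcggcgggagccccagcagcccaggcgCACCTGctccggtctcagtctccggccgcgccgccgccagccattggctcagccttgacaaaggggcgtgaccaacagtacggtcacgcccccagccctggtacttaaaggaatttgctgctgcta
Of 32851 promoter windows of this length, 17.22% hold the motif on either strand. The windows of Vim, Twist1 and Zeb2, the other 3 of the 10 genes matched in the RefSeq table, do not hold these letters. A match is a description of the sequence, not a site of binding.

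Snai2 (ENSMUSG00000022676, GRCm39 chr16:14523425-14527252) was also lower in the untreated experiment, at 11.1 and 10.6 CPM in Sin3Bsg1 against 13.9 and 14.7 CPM in sgCtrL, without overlap (log2 fold change -0.40, SE 0.096, adjusted p = 0.00448). In the IFNγ experiment the estimates had the other sign and did not pass the test. Snai2 stood at 5.34 to 6.79 CPM in sgCtrL and 5.94 to 7.13 CPM in Sin3Bsg1 without IFNγ (log2 fold change 0.13, adjusted p = 0.582). With IFNγ it stood at 7.44 to 8.90 against 7.60 to 9.96 CPM (0.15, adjusted p = 0.486).

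Twist1 (ENSMUSG00000035799, GRCm39 chr12:34007645-34009828) was lower in Sin3Bsg1 in all 3 genotype comparisons. The untreated libraries held 5.41 and 5.95 CPM in sgCtrL and 3.55 and 3.37 CPM in Sin3Bsg1 (log2 fold change -0.71, SE 0.16, adjusted p = 0.0032). Without IFNγ the values were 13.1, 9.64 and 9.41 CPM against 8.61, 7.70 and 7.44 CPM (-0.43, SE 0.13, adjusted p = 0.0354), and with IFNγ 14.6, 15.4 and 13.3 CPM against 8.90, 10.3 and 11.4 CPM (-0.50, SE 0.13, adjusted p = 0.0111). The groups did not overlap. The call without IFNγ was lost with replicate 1 of sgCtrL left out (log2 fold change -0.27, adjusted p = 0.195), with replicate 2 or 3 of Sin3Bsg1 left out (adjusted p = 0.106 and 0.117) and with replicate 2 of Sin3Bsg1 with IFNγ left out (adjusted p = 0.0587), and the call with IFNγ without replicate 1 of Sin3Bsg1 (adjusted p = 0.0548). Its relative Twist2 was the more abundant transcript in untreated sgCtrL, at 34.7 ± 1.54 TPM (n = 2) against 7.17 ± 0.473 TPM (n = 2) for Twist1, and its log2 fold changes of -0.02, -0.05 and -0.04 did not pass the test.

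Zeb2 (ENSMUSG00000026872, GRCm39 chr2:44873644-45007464) differed by a similar small amount in each genotype comparison. It stood at 53.2 and 53.1 CPM in untreated sgCtrL and 43.4 and 45.6 CPM in untreated Sin3Bsg1 (log2 fold change -0.26, SE 0.048, adjusted p = 0.000616). Without IFNγ the values were 90.5, 88.4 and 85.3 CPM against 77.8, 71.4 and 78.5 CPM, and with IFNγ 79.9, 79.9 and 85.1 CPM against 72.8, 71.5 and 67.1 CPM. The log2 fold change was -0.21 in both (SE 0.052, adjusted p = 0.00936 and 0.0103), again without overlap. The first of these calls was lost without replicate 1 of sgCtrL or replicate 2 of Sin3Bsg1 (adjusted p = 0.0502 and 0.0619), and the second without replicate 3 of Sin3Bsg1 (adjusted p = 0.0539). How strand entered the counting is not stated, so reads of Zeb2 and of its antisense gene Zeb2os cannot be told apart.

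Zeb1 (ENSMUSG00000024238, GRCm39 chr18:5591851-5775467) was lower in untreated Sin3Bsg1, at 43.2 and 43.3 CPM against 50.8 and 49.1 CPM (log2 fold change -0.21, SE 0.049, adjusted p = 0.00363). Without IFNγ the Sin3Bsg1 libraries held 61.4, 61.9 and 60.6 CPM and the sgCtrL libraries 73.3, 69.7 and 66.2 CPM (-0.19, SE 0.056, adjusted p = 0.0324). With IFNγ the groups overlapped, at 65.6 to 73.5 against 69.3 to 76.1 CPM (-0.08, SE 0.056, adjusted p = 0.368). The call without IFNγ was not firm: it was lost with 8 of the 12 libraries left out in turn, namely replicates 1 and 2 of sgCtrL and each replicate of Sin3Bsg1 without IFNγ, and replicate 2 of sgCtrL and replicates 2 and 3 of Sin3Bsg1 with IFNγ (adjusted p from 0.0557 to 0.149).

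Vim (ENSMUSG00000026728, GRCm39 chr2:13578738-13587639) was not lower in Sin3Bsg1 in any comparison. In the untreated experiment it stood at 2051 and 2107 CPM in sgCtrL and 2102 and 2096 CPM in Sin3Bsg1, a log2 fold change of 0.014 with a 95% interval of -0.020 to 0.047. Without IFNγ the 3 Sin3Bsg1 libraries, at 1448 to 1545 CPM, lay above the 3 sgCtrL libraries at 1315 to 1335 CPM, but the log2 fold change of 0.18 did not pass the test (SE 0.073, adjusted p = 0.107). With IFNγ it was 0.15 (adjusted p = 0.175). Here the library that stood apart decided the result: replicate 1 of sgCtrL held 1814 CPM and the other 2 held 1414 CPM each. Without that library Vim was higher in Sin3Bsg1 by 0.30 with IFNγ (adjusted p = 4.23e-06) and by 0.19 without IFNγ (adjusted p = 0.000108), and without replicate 2 of that group by 0.20 without IFNγ (adjusted p = 0.0429).

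Counted together, 7 of the 9 genes tested passed the test in the untreated experiment. Cdh1 was higher, against 15.1% of all 14589 genes tested that were called higher, and Cdh2, Snai1, Snai2, Twist1, Zeb1 and Zeb2 were lower, against 16% called lower. Without IFNγ 1 gene (Cdh1) was higher, against 7.89% of 14913 genes, and 3 (Twist1, Zeb1 and Zeb2) were lower, against 9.33%. With IFNγ 1 gene (Cdh1) was higher, against 8.62%, and 3 (Twist1, Zeb2 and Grhl2) were lower, against 7.9%. The median log2 fold change of the 9 genes was -0.21, -0.07 and -0.07, beside 0.0024, -0.009 and 0.0036 over all genes tested. The spread between libraries (edgeR's common biological coefficient of variation) was 2.84% in the untreated and 6.78% in the IFNγ experiment. Smaller changes could thus pass in the untreated experiment, and its count is not directly comparable with the others. With single libraries left out, the count without IFNγ fell to 1 (replicate 1 of sgCtrL or replicate 2 of Sin3Bsg1) or 2 (replicate 3 of Sin3Bsg1, or replicate 2 of Sin3Bsg1 with IFNγ), and the count with IFNγ to 2 (replicate 1 of Sin3Bsg1).

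**Figure D3:**
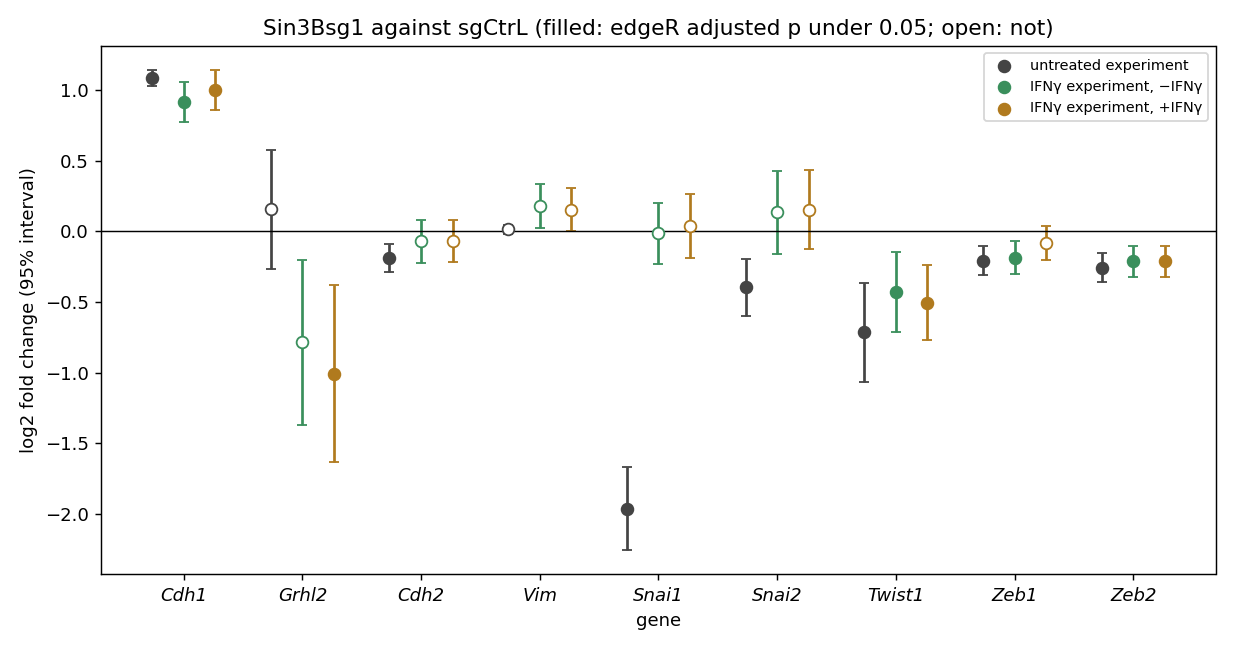
Log2 fold change of Sin3Bsg1 against sgCtrL for 9 genes with 95% intervals from edgeR, in the untreated experiment (black) and in the IFNγ experiment without (green) and with IFNγ (ochre); filled points have an adjusted p under 0.05 and open points do not. Cdh1 lies between 0.92 and 1.08 in all 3 comparisons, while Snai1 is at -1.97 in the untreated experiment and at -0.014 and 0.039 in the IFNγ experiment.

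The balance of the whole group was expressed as the mean log2(TPM + 0.1) of the epithelial genes Cdh1, Grhl2 and Ovol1 minus that of the 7 mesenchymal genes. In the untreated experiment it was -3.76 and -3.87 in sgCtrL and -2.85 and -2.82 in Sin3Bsg1, a difference of 0.98 without overlap. Of this, the epithelial mean rose by 0.45 and the mesenchymal mean fell by 0.53. The fall was uneven over the 7 mesenchymal genes: it was largest for Snai1 (15.42 to 3.945 TPM), and Vim did not fall (1946 and 1963 TPM). Snai1 was not called between the genotypes in the IFNγ experiment. Without IFNγ the balance was -4.36, -4.01 and -4.13 in sgCtrL and -3.98, -3.81 and -3.99 in Sin3Bsg1, a difference of 0.24 without overlap, against an SD of up to 0.18. Ovol1 entered this score at 0, 2 and 0 counts in sgCtrL and 1, 2 and 1 in Sin3Bsg1, under the floor of 3 counts. Part of the difference thus came from a gene under that floor, and the lack of overlap is not firm. With IFNγ the groups overlapped, at -4.16, -4.51 and -4.24 against -4.35, -4.47 and -3.83, and the difference of 0.086 lay within the SD of 0.34. The difference with IFNγ changed sign without replicate 3 of Sin3Bsg1 (-0.11), the library with 6 counts of Ovol1, or without replicate 2 of sgCtrL (-0.015).

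With IFNγ the ratio of Cdh1 to Cdh2 was lower in both genotypes. In sgCtrL, Cdh1 went from 88.4 to 91.8 CPM without IFNγ to 70.7 to 85.3 CPM with it, without overlap (log2 fold change -0.23, SE 0.068, adjusted p = 0.0171). The call was lost without replicate 1 of sgCtrL without IFNγ (adjusted p = 0.0672) or replicate 2 or 3 of sgCtrL with IFNγ (adjusted p = 0.0539 and 0.0843), whereas without the library that stood apart the log2 fold change was -0.33 (adjusted p = 0.000259). In Sin3Bsg1 the values were 167 to 172 CPM without and 142 to 165 CPM with IFNγ (-0.15, SE 0.065, adjusted p = 0.101). Without replicate 1 of Sin3Bsg1 with IFNγ, the highest of its group, the change was -0.24 (adjusted p = 0.0126), and without the library that stood apart it was -0.16 (adjusted p = 0.0158). It also passed with no filter on low counts or with at least 10 counts in every library (adjusted p = 0.0442 and 0.0456). Cdh2 had log2 fold changes of 0.11 in each genotype that did not pass the test (adjusted p = 0.253 in both). The log2 ratio of Cdh1 to Cdh2 was lower with IFNγ by 0.35 in sgCtrL (SD up to 0.08) and by 0.27 in Sin3Bsg1 (SD up to 0.042), with no overlap between libraries with and without IFNγ.

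Among the regulators, IFNγ was accompanied by less Snai1 and more Snai2 and Twist1. Snai1 fell from a mean of 15.3 ± 0.698 to 10.8 ± 1.07 CPM in sgCtrL (n = 3 each; log2 fold change -0.50, SE 0.11, adjusted p = 0.00206) and from 15.2 ± 2.02 to 11.1 ± 0.753 CPM in Sin3Bsg1 (n = 3 each; -0.45, SE 0.10, adjusted p = 0.00401). Both calls remained in all 17 alternatives. Snai2 rose by 0.38 in sgCtrL (adjusted p = 0.0479) and by 0.40 in Sin3Bsg1 (adjusted p = 0.0333), from 6.09 to 7.95 CPM and from 6.69 to 8.83 CPM as group means, but the first call was lost under 11 and the second under 5 of 17 alternatives. Those include leaving out replicate 1 of either group without IFNγ, which gave 0.30 (adjusted p = 0.173) in sgCtrL and 0.32 (adjusted p = 0.139) in Sin3Bsg1, and DESeq2, which gave adjusted p = 0.0704 and 0.0633. Twist1 rose in sgCtrL by 0.43 (adjusted p = 0.0168) and in Sin3Bsg1 had an estimate of 0.36 (adjusted p = 0.0524). The call in sgCtrL was lost without replicate 2 or 3 of sgCtrL without IFNγ (adjusted p = 0.0863 and 0.0817) or replicate 2 with IFNγ (adjusted p = 0.0639). The estimate in Sin3Bsg1 passed the test without replicate 1 of sgCtrL without IFNγ, or replicate 1 of either genotype with IFNγ (adjusted p = 0.0235, 0.0418 and 0.0398).

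Zeb1 rose in Sin3Bsg1 with IFNγ by 0.17 (SE 0.056, adjusted p = 0.0371), from 61.3 ± 0.664 to 68.8 ± 4.19 CPM (n = 3 each), a call lost under 12 of 17 alternatives. Without replicate 1 of Sin3Bsg1 with IFNγ its log2 fold change was 0.087 (adjusted p = 0.309). In sgCtrL its log2 fold change of 0.06 did not pass the test (adjusted p = 0.456). Zeb2 had log2 fold changes of -0.11 in both genotypes (adjusted p = 0.134 and 0.142). Grhl2 had log2 fold changes of -0.50 in sgCtrL and -0.72 in Sin3Bsg1 (adjusted p = 0.188 and 0.0842), and the latter passed the test without replicate 2 of sgCtrL (adjusted p = 0.048) or replicate 3 of Sin3Bsg1 (-0.99, adjusted p = 0.0454) with IFNγ. Vim was higher in sgCtrL with IFNγ by 0.22 (adjusted p = 0.0303), a value that the library standing apart decided: without it the log2 fold change was 0.083 (adjusted p = 0.0688). The call was also lost without any 1 of the 3 sgCtrL libraries without IFNγ (adjusted p from 0.071 to 0.0843). In Sin3Bsg1 Vim went from 1448 to 1545 CPM to 1656 to 1770 CPM, without overlap (0.20, SE 0.073, adjusted p = 0.0562). Without replicate 1 or 3 of sgCtrL with IFNγ, the Sin3Bsg1 estimates for Vim passed the test (0.19, adjusted p = 6.57e-05, and 0.20, adjusted p = 0.039).

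With IFNγ, 3 of the 9 genes tested (Snai2, Twist1 and Vim) were thus called higher and 2 (Cdh1 and Snai1) lower in sgCtrL, against 15.7% and 14.5% of all genes tested. In Sin3Bsg1, 2 (Snai2 and Zeb1) were called higher and 1 (Snai1) lower, against 16.1% and 12.3%. Without the library that stood apart the counts were 3 in sgCtrL and 6 in Sin3Bsg1. Leaving out each other sgCtrL library in turn gave 2 or 3 calls in sgCtrL, and leaving out replicate 1 or 3 of Sin3Bsg1 without IFNγ or replicate 2 of Sin3Bsg1 with IFNγ gave 1 call in Sin3Bsg1. The comparisons of each genotype without and with IFNγ share libraries with those between genotypes.

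**Figure D4:**
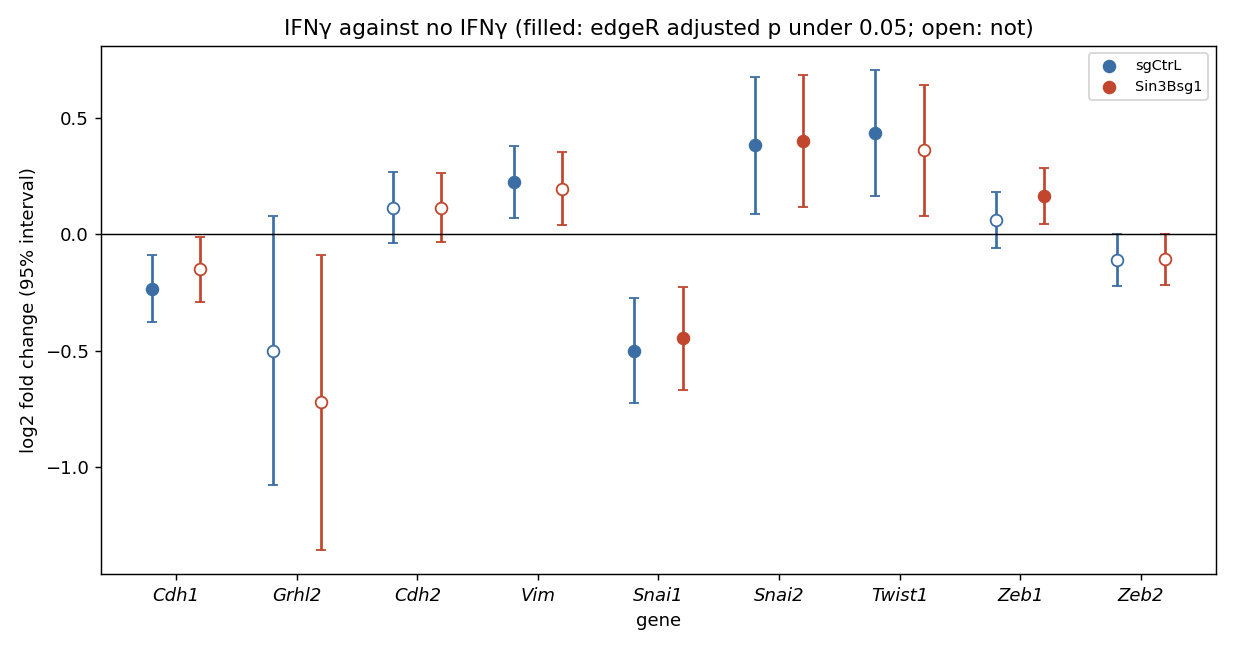
Log2 fold change with IFNγ against without for 9 genes in sgCtrL (blue) and Sin3Bsg1 (red), with 95% intervals from edgeR; filled points have an adjusted p under 0.05 and open points do not. Snai1 lies at -0.50 and -0.45, and the intervals of the genotypes overlap for each gene.

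Whether the response to IFNγ differed between the genotypes was tested as an interaction. None of the 9 genes tested was called by edgeR, at an adjusted p or at an unadjusted p under 0.05, nor by DESeq2 at either, while 0.114% of all genes tested were called by edgeR (17 of 14913, with 810 at an unadjusted p under 0.05). Over all genes that count was 33 without the library that stood apart, 15 without replicate 2 of sgCtrL with IFNγ and 1 to 7 with any other library left out. Without the library that stood apart the interaction had an unadjusted p of 0.0371 for Cdh1 (0.17, adjusted p = 0.547) and 0.0306 for Vim (0.11, adjusted p = 0.529). The precision varied: the 95% interval of the interaction was -0.12 to 0.28 for Cdh1, -0.21 to 0.21 for Cdh2, -0.26 to 0.37 for Snai1 and -1.08 to 0.63 for Grhl2. Differences within these intervals were not detectable with these libraries.

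Epithelial genes other than the 10 were followed through a list of 34 junction, keratin and related genes. In the untreated experiment 22 of the 26 tested were higher in Sin3Bsg1 and 0 lower, beside 15.1% and 16% of all genes tested, with a median log2 fold change of 0.72 beside 0.0024 over all genes. They included Krt7, a keratin of ductal epithelium (38.1 ± 0.865 to 120 ± 4.13 CPM, n = 2 each; log2 fold change 1.66), Krt19 (1113 ± 0.429 to 1615 ± 0.799 CPM; 0.54) and the protease inhibitor Spint2 (51.9 ± 2.33 to 104 ± 1.66 CPM). Without IFNγ 9 of 25 were higher and 1, the plakin gene Ppl, was lower (7.89% and 9.33% of all genes), with a median of 0.23. With IFNγ 11 of 25 were higher and Ppl again lower (8.62% and 7.9% of all genes), with a median of 0.38. Spint2 (1.17 and 1.14), Krt7 (1.05 and 1.15) and the tricellular junction gene Lsr (1.35 and 1.38) had the smallest adjusted p in both, at or below 7.31e-07. Krt19 was higher with IFNγ (0.16) and not called without it (0.05).

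Most transcription factors of epithelial and pancreatic identity that were called were higher. Of 15 tested, 10 were higher and 1 (Pdx1) lower in the untreated experiment, 9 higher and 0 lower without IFNγ, and 8 higher and 0 lower with IFNγ (5 higher without replicate 2 or 3 of sgCtrL or replicate 1 or 2 of Sin3Bsg1 with IFNγ), with medians of 0.31, 0.37 and 0.19. The shares of all genes called higher were 15.1%, 7.89% and 8.62%. Hnf4a, a nuclear receptor of endodermal epithelium, was higher in all 3, from 127 ± 2.26 to 231 ± 1.12 CPM in the untreated experiment (n = 2 each; 0.86) and by 0.96 and 1.18 in the IFNγ experiment. Elf3 (0.99) in the untreated experiment, Gata4 (1.35) and Ehf (0.54) without IFNγ and Gata4 (1.30) and Klf5 (0.59) with IFNγ were among the genes with the smallest adjusted p, each at or below 1.97e-05.

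Mesenchymal matrix, adhesion and cytoskeleton genes were mostly lower in the untreated experiment and went both ways in the IFNγ experiment. Untreated, 18 of 30 tested were lower in Sin3Bsg1 and 6 higher, beside 16% and 15.1% of all genes, with a median log2 fold change of -0.23. The collagens Col3a1 (415 ± 0.846 to 180.3 ± 1.32 CPM, n = 2 each; -1.20) and Col5a1 (121 ± 0.405 to 49.0 ± 2.43 CPM; -1.31) and the matricellular gene Sparc (313 ± 1.93 to 183 ± 1.45 CPM; -0.77) had the smallest adjusted p, at or below 1.10e-12. In the same libraries the fibroblast markers Pdgfra (86.1 ± 0.527 to 25.1 ± 1.19 CPM) and Pdgfrb (13.39 to 6.06 CPM) were lower. Col15a1, another such marker, stood at 0.897 and 1.42 CPM and was not called. Dcn, Lum, Fap, Pdpn and Thy1 averaged under 1 CPM. The part of these markers in the list's change was not tested. Without IFNγ 8 of 30 were lower and 5 higher (9.33% and 7.89% of all genes; median -0.04), and with IFNγ 6 were lower and 6 higher (7.9% and 8.62% of all genes; median 0.04). In both, Fstl1, a secreted glycoprotein, was lower (-1.86 and -1.85) and Col1a1 was higher (1.37 and 1.54). Col1a1 had been lower in the untreated experiment, at 17.4 ± 0.968 CPM in sgCtrL and 5.67 ± 0.0906 CPM in Sin3Bsg1. Tgm2, a transglutaminase, was higher without IFNγ (0.69), and Ccn2, a matricellular gene and YAP target, was higher with IFNγ (1.16). Ccn2 also had a higher group mean in Sin3Bsg1 untreated and without IFNγ. Its mean log2 CPM, centred within each experiment, was 0.565 against -0.565 untreated and 0.483 against -0.362 without IFNγ.

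**Figure D5:**
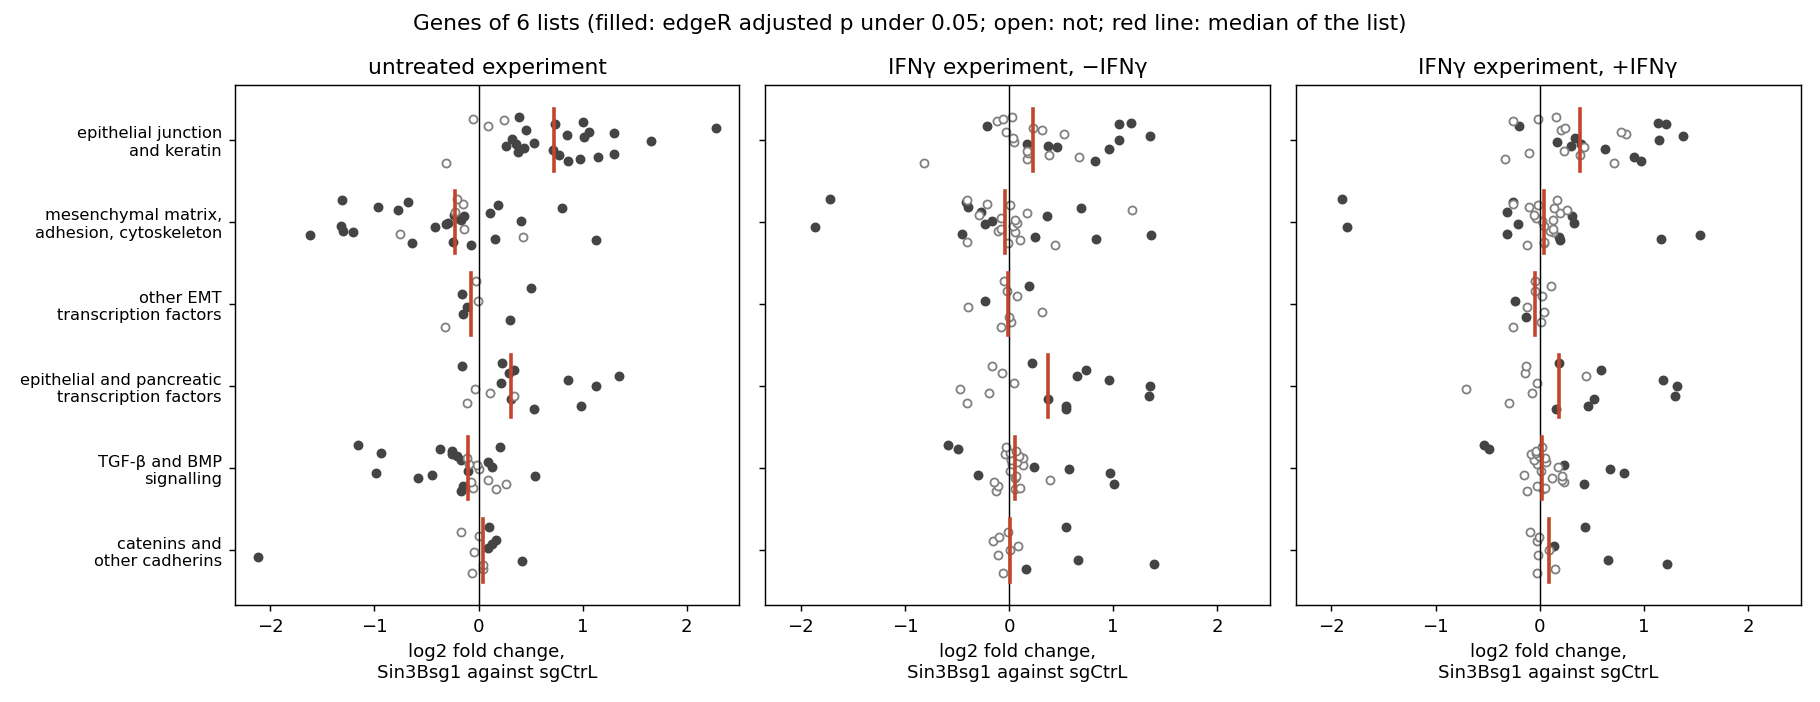
Log2 fold change of Sin3Bsg1 against sgCtrL for the genes tested of 6 lists (rows; each point is a gene) in the 3 genotype comparisons (panels), filled where the edgeR adjusted p is under 0.05; red lines are the medians of the lists. The epithelial list has medians of 0.72, 0.23 and 0.38, and the mesenchymal list of -0.23, -0.04 and 0.04.

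Other transcription factors of EMT had medians near 0. Untreated, 2 of 8 tested, Tcf4 (0.50) and Foxq1 (0.30), were higher and 3, among them the chromatin protein Hmga2 (-0.15), were lower. Without IFNγ Tcf4 (0.19) was higher and Sox4 (-0.23) lower of 10 tested, and with IFNγ Sox4 (-0.24) and Hmga2 (-0.13) were lower. The call of Tcf4 was lost without replicate 2 of sgCtrL or replicate 3 of Sin3Bsg1 without IFNγ, and that of Hmga2 with any library of the IFNγ experiment left out other than replicate 1 of either genotype with IFNγ. The medians were -0.07, -0.01 and -0.05. These counts stand beside 15.1% of all genes called higher and 16% lower in the untreated experiment, 7.89% and 9.33% without IFNγ and 8.62% and 7.9% with IFNγ. Snai3 was at 0 to 2 counts in every library.

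TGF-β signalling, a known inducer of EMT, was mixed. Untreated, 13 of 26 genes tested were lower in Sin3Bsg1 and 4 higher (16% and 15.1% of all genes; median -0.10), led by the latent TGF-β binding protein Ltbp2 (-0.99), the co-receptor Tgfbr3 (-1.16) and the ligand Tgfb2 (-0.94). Without IFNγ 4 were higher and 3 lower (7.89% and 9.33% of all genes; median 0.06), and with IFNγ 4 were higher and 2 lower (8.62% and 7.9% of all genes; median 0.03). Ltbp2 was higher there (0.96 and 0.81), as was the activin antagonist Fst without IFNγ (1.01). The receptors Tgfbr1 (-0.37, -0.49 and -0.49) and Tgfbr3 (-1.16, -0.59 and -0.54) were lower in all 3 genotype comparisons.

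Of the catenins and other cadherins, 5 of 12 were higher and 1 lower in the untreated experiment, 4 of 11 higher without IFNγ and 4 of 11 higher with IFNγ, with 0 lower in the IFNγ experiment and medians of 0.04, 0.007 and 0.09. Of all genes 15.1%, 7.89% and 8.62% were called higher. Cdh17, the liver-intestine cadherin, was higher in all 3 (0.41, 0.66 and 0.65) and was the more abundant cadherin transcript, at 356 ± 5.63 TPM in untreated sgCtrL (n = 2) beside 62.9 ± 0.488 TPM for Cdh1. Ctnnd1, which encodes p120-catenin, was higher in the untreated experiment by 0.13. Cdh3, P-cadherin, was low at 2.57 ± 0.168 CPM in untreated sgCtrL and fell to 0.586 ± 0.0959 CPM in Sin3Bsg1 (n = 2 each; -2.12, adjusted p = 6.21e-05), and was at 0 to 8 counts in the IFNγ experiment. Vcl, vinculin (0.54 and 0.43), and Cdh13 (1.40 and 1.22) were higher in the IFNγ experiment.

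With IFNγ, the medians of these lists ran from -0.28 to 0.014 over both genotypes, beside medians of all genes of -0.0006 and 0.0052. The shares of all genes called were 15.7% higher and 14.5% lower in sgCtrL and 16.1% and 12.3% in Sin3Bsg1. Of 25 epithelial genes 3 were higher and 7 lower in sgCtrL and 4 higher and 6 lower in Sin3Bsg1. Krt18 rose in both (0.72 and 0.94), Dsg2, a desmosomal cadherin, rose in sgCtrL (1.73), and Spint2 fell in Sin3Bsg1 (-0.44). A gene named here for 1 genotype had 1 of its 2 smallest adjusted p in that list, which does not mark a response of that genotype alone. Dsg2 also went from a mean of 1.55 to 5.15 CPM in Sin3Bsg1 (n = 3 each). The interaction called 0 of the 25 epithelial genes. Of 30 mesenchymal genes 6 were higher and 12 lower in sgCtrL and 7 higher and 10 lower in Sin3Bsg1, led by rises of Tgm2 (2.31 and 1.75) and Fstl1 (1.47 and 1.48). Of 26 TGF-β and BMP genes 3 were higher and 12 lower in sgCtrL and 4 higher and 14 lower in Sin3Bsg1, with Fst higher in both (2.78 and 2.20), Tgfbr3 lower in sgCtrL (-0.72) and Tgfb2 lower in Sin3Bsg1 (-1.12). As group means, Tgfbr3 also went from 37.2 to 23.4 CPM in Sin3Bsg1 and Tgfb2 from 21.6 to 10.3 CPM in sgCtrL. Of 15 epithelial and pancreatic transcription factors 2 were higher and 5 lower in sgCtrL and 3 higher and 6 lower in Sin3Bsg1, with Hnf4a (-0.60 and -0.37) and Sox9 (-0.57 and -0.60) lower. Of 10 other EMT factors 2 were higher in each genotype and 3 and 5 lower, with Foxq1 lower in both (-0.94 and -0.95), Hmga2 higher in sgCtrL (0.38) and Sox4 lower in Sin3Bsg1 (-0.38). As group means, Hmga2 also went from 244.9 to 291.4 CPM in Sin3Bsg1 and Sox4 from 167.3 to 129.7 CPM in sgCtrL. Of 11 catenins and other cadherins 3 were higher and 2 lower in sgCtrL and 2 higher and 2 lower in Sin3Bsg1, with Jup, plakoglobin, lower (-0.94 and -0.81) and Cdh17 higher (0.35 and 0.34). Calls in sgCtrL fell from 10 to 6 epithelial genes without replicate 3 without IFNγ, from 7 to 4 identity factors without replicate 3 with IFNγ and from 5 to 3 catenins and cadherins without replicate 1 without IFNγ, and rose from 5 to 8 other EMT factors without replicate 1 with IFNγ.

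The genes whose levels lay nearest to those of Cdh1 over the 6 groups were sought among 13654 genes tested in both tables, by the mean absolute difference of log2 CPM group means centred within each experiment. They were Ccn2 (0.048), 2700054A10Rik (0.056), the tight junction gene Cldn3 (0.057), Myrf (0.068) and Arhgap27 (0.068). The nearest to Cdh2 were Mbd3 (0.004), Carm1 (0.006), Rpgrip1l (0.008), Phka1 (0.009) and Atp6v0a2 (0.009). The group means of Cdh2 differed little, whereas Cdh1 rose in each Sin3Bsg1 group. Its neighbours share that rise by the way they were picked, which used these same levels.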

How the data were processed

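The authors deposited estimated counts per gene, not normalized, for each experiment. The study's methods name HISAT2, mm9 and featureCounts, whereas the submitters' processing notes list fastp, HISAT2, StringTie, DESeq2 and mm39, and 98.68% of identifiers are in the GENCODE annotation of GRCm39. Counting by strand is not given in the sources used here. Control columns bear the name lacZ, which was read as the sgCtrL guide. Of the untreated features, 324 assembled loci without a gene name (0.615 to 0.677% of counts) were left out. Counts were rounded and tested in edgeR 4.0.16 (R 4.3.3; TMM, filterByExpr, two-sided quasi-likelihood F test) for each experiment apart, the 12 IFNγ libraries with a mean per group, with Benjamini-Hochberg adjustment over all genes tested and a threshold of 0.05. SE is the absolute log2 fold change over the square root of F. The fits were tested on simulated data. Alternatives were DESeq2 1.42.0, RLE size factors, other filters, each library left out, the compared libraries alone and a replicate block. Ratios and the balance carry no test. The floor of 3 counts covers counting error only. Plots were drawn with matplotlib 3.10.9. From each list, the 3 (genotype) or 2 (IFNγ) genes called with the smallest adjusted p were named, with relatives of the 10 genes (Ovol2, Grhl1, Grhl3, Snai3, Twist2, Cdh3). Ppl, Pdx1, Pdgfra, Pdgfrb, Col15a1, Cldn4, Cela1, Prss2 and values of a listed gene in further comparisons were named after seeing them. Values of 1 gene that this rule names are not reported here. The genes and lists were chosen with earlier results of these data known.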

Additional observations from a re-analysis of the deposited data

Results flagged for a closer look

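None of the 10 genes was flagged, and the following genes of the lists were. Col1a1 changed in opposite directions in the experiments, with every library on the same side: the log2 fold change of Sin3Bsg1 against sgCtrL was -1.62 in the untreated experiment, 1.37 without IFNγ and 1.54 with IFNγ. Ltbp2 did likewise, at -0.99, 0.96 and 0.81. Col5a1 was -1.31 in the untreated experiment and 0.0599 without IFNγ, and Jup was 0.16 and -0.15, with groups that did not overlap. These differences between experiments were not tested, since the tables are separate. The response to IFNγ differed between the genotypes by the interaction test for Tgm2 (-0.56), Fst (-0.58) and Ehf (-0.39), whose log2 fold change with IFNγ was lower in Sin3Bsg1 than in sgCtrL. Each of these 3 calls was lost without any 1 of the 6 libraries without IFNγ (adjusted p from 0.0617 to 0.132) or replicate 2 of Sin3Bsg1 with IFNγ (0.0514 to 0.0515). Those of Ehf and Fst were also lost without replicate 3 of sgCtrL with IFNγ (0.0619 and 0.054), and that of Ehf without replicate 3 of Sin3Bsg1 with IFNγ (0.0511).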

How the results depend on the processing

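Every alternative tried left the higher level of Cdh1 in Sin3Bsg1 called in the 3 genotype comparisons, and the Cdh1 to Cdh2 ratio moved by less than 1 SD. Of the refitted log2 fold changes of the 9 genes tested, 729 kept direction and side of the threshold, 59 lost the call, 22 gained it and 45 changed sign. The count of genes called held at 7 in the untreated experiment. With single libraries left out it ran from 1 to 6 without IFNγ, from 2 to 4 with IFNγ, from 2 to 5 for IFNγ in sgCtrL and from 1 to 6 for IFNγ in Sin3Bsg1, where DESeq2 gave 1 and no filter 5. Uncalled estimates near 0 changed sign with single libraries left out: in the untreated experiment Vim ran from -0.0061 to 0.0332 and Grhl2 from -0.0859 to 0.3676, without IFNγ Snai1 from -0.0917 to 0.0887, and with IFNγ Cdh2 from -0.1296 to 0.0255 and Snai1 from -0.0229 to 0.1293. The interaction ran from -0.0036 to 0.1696 for Cdh1, -0.0783 to 0.0852 for Cdh2, -0.105 to 0.1053 for Vim, -0.0492 to 0.1314 for Snai1, -0.0937 to 0.1074 for Snai2, -0.239 to 0.0059 for Twist1, -0.0472 to 0.031 for Zeb2 and -0.0399 to 0.0534 for Sin3b. Under RLE size factors, DESeq2, no filter and a minimum of 10 counts it was -0.014, -0.0138, -0.0043 and -0.0209 for Cdh2 and -0.0134, -0.013, -0.0032 and -0.0208 for Zeb2, and under the last -0.0016 for Snai2. The cause of these changes was not tested. The balance differed by 0.8673 in the untreated experiment with a pseudocount of 1, and with IFNγ by -0.1065 to 0.2123 with single libraries left out. No filter, or a minimum of 10 counts, brought Grhl2 without IFNγ past the threshold (adjusted p = 0.0272 and 0.048), and no filter did so for Vim (adjusted p = 0.00187 without and 0.0168 with IFNγ). No filter also did so for Vim (adjusted p = 0.00103) and Twist1 (0.0256), and both filters for Cdh1, for IFNγ in Sin3Bsg1. Of 18 same-numbered pairs in the IFNγ experiment 3 had a correlation of deviations over 0.1 (-0.048 to 0.166 in all). Between the genotypes with IFNγ, replicates 1, 2 and 3 were at 0.166, 0.153 and -0.014. Replicates 1 and 2 crossed were at -0.152 and -0.189 there. Both in the untreated experiment were at 0.02, which is 1 value, since 2 libraries per group make them equal. The numbers were not taken as pairs in the main fit. With the replicate block the counts of the 10 genes called were 7, 4 and 4 for genotype, 5 and 3 for IFNγ and 0 for the interaction, and 4675 of all genes were called in the untreated experiment, beside 4543. Grhl2, at 22 to 150 counts, and Ovol1, at 0 to 6, are limited by depth.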
